A study of Bos taurus with 48 samples.

Results

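The enzymes described here carry out glycolysis in skeletal muscle: PFKM, ALDOA, TPI1, GAPDH, PGK1, PGAM2, ENO3, LDHA and LDHB, together with FBP2, which works against the phosphofructokinase step. A probe was taken when its gene name, or the symbol in parentheses in its description, was that of one of these 10 genes. This gave 13 of the 21475 probes of a bovine Agilent array. After naming by transcript, 11 of the 13 probes belong to the 10 genes, and all 10 were among the 14647 genes tested. 1 probe that carries the name FBP2 in the files belongs to the RefSeq transcript of FBP1, the form known from liver, and 1 probe described as GAPDH belongs to the separate locus LOC616200. Values of both are given apart from those of the 10 genes.

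Glycolysis splits glucose to pyruvate and yields ATP without oxygen, and fast-twitch muscle fibres depend on it for short bursts of work. Several of its steps have a form that prevails in muscle (PFKM, PGAM2, ENO3) beside forms used in other tissues, and the muscle forms are known to replace the others as fibres mature. Lactate dehydrogenase is built of a muscle-type subunit, LDHA, and a heart-type subunit, LDHB, which prevails in oxidative tissue.

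RNA of longissimus muscle, the long muscle of the loin, was measured in 35 cattle on 48 two-colour arrays, which give 96 channels and 26 conditions over 13 time points. Calves of Piedmontese sires (PxH) and of Wagyu sires (WxH) out of Hereford cows were compared on the same arrays at gestation days 60, 135 and 195, at birth, and at 3, 7, 12, 20, 25 and 30 months. Piedmontese cattle are known for heavy muscling and Wagyu cattle for fat within the muscle. In a separate experiment, Belmont Red animals on a restricted diet, called weight loss in the labels, were set against animals on a growth diet at time points 0, 1 and 2. The paper describes deprivation followed by re-alimentation in adult animals, without stating at which time point feed was restored. Restricted is therefore used here as the name of an arm. The 12 prenatal animals (6 of each cross) were sampled once. Names of 2 of the PxH animals of day 195 differ by a last letter only. They were counted as 2 animals, and counted as 1 the same 9 members were called with stage. The 9 post-natal animals (5 PxH, 4 WxH) were sampled at several ages. At birth 3 animals of each cross were used, and the diet arms held 4 animals each at time 0, 3 restricted and 4 growth animals at time 1, and 2 each at time 2. Gestation day 60 rests on 1 animal of each cross, hybridised on 3 arrays.

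Levels are log2 normalized intensities, 1 value per animal and time point, and differences are in log2 units. Adjusted p-values are from limma with Benjamini-Hochberg adjustment over all 14647 genes, two-sided, and a gene was called past 0.05. Between 49.9% and 76.4% of the spots, controls left out, were well above background in a channel. All members passed that flag in 96 of 96 channels except FBP2, which passed in 90. In bulk tissue, fewer cells of a type and less RNA per cell cannot be told apart.

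The tissue was checked with 6 skeletal muscle fibre genes (ACTA1, CKM, DES, MYL1, TTN, TNNC2). Their mean level was 13.44 and 14.05 in the day 60 animals and between 14.75 and 16.29 in the other animals of both crosses, each averaged over its ages, with 1 exception. In a PxH animal of gestation day 135, on array replicate 2, the mean was 9.82. Its ACTA1 read 10.02 against 16.73 to 17.58 in the 4 other animals of that day. The adipocyte genes of this animal had a mean of 13.86 against 8.47 to 9.57, and FABP4 read 16.56 against 9.02 to 11.63. Muscle fibre genes were thus low in a sample labelled as muscle, and the main developmental results that use it are given with and without its array.

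The probe sequences below show what was hybridised, for the members whose results differ between probes or between forms. Every probe is written in the sense of the transcript, and capitals mark AATAAA, the usual signal for poly(A) addition, where a script found it. The 2 GAPDH probes are shown whole because they moved by unlike amounts. FBP2 and FBP1 share a name in the files but no long stretch, and LDHA and LDHB moved in opposite directions. PFKM, PGAM2 and ENO3 are the muscle forms of their steps.
GAPDH probe 1: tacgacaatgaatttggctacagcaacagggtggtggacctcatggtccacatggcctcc
GAPDH probe 2: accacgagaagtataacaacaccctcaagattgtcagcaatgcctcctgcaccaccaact
FBP2: tgctcatgacaggtctagaaaccagaggcg
FBP1: cctagtcatagaAATAAAaagtatggctgt
LDHA: tcctgggatccaatgtacaaatccagtatt
LDHB: ggctcccagaatcaaagcccatgcttgctt
PFKM: cataactacactAATAAAtgccaactggtc
PGAM2: ggtgggtgctgccAATAAAggcacctcctt
ENO3: aagcccttccccctgaAATAAAacactggt
AATAAA was in 6 of the 13 probes (46.2%) and in 11.9% of the 21256 probes of that length, searched as written. Its reverse complement TTTATT was in 0 of the 13 and in 3.91% of all. The longest run shared by any pair of the 13 probes was 11 bases, and 5 bases between the LOC616200 probe and a GAPDH probe.

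Over development, 8 of the 10 members were higher in post-natal than in prenatal animals, 1 was lower and 1 was not called. Of all genes tested, 38.8% were called higher and 36.1% lower in the same comparison, so most genes on the array moved with stage. FBP2 rose by 6.06 (SE 0.98), with its 2 day 60 animals read at background, PFKM by 2.56 (0.48), GAPDH by 2.29 (0.27), PGAM2 by 1.97 (0.58), LDHA by 1.96 (0.37), PGK1 by 1.75 (0.13), ENO3 by 1.44 (0.57) and TPI1 by 0.88 (0.19). LDHB fell by 0.65 (SE 0.20, limma adjusted p = 0.00532). ALDOA, the muscle aldolase that splits the sugar, differed by 0.53 (SE 0.28, limma adjusted p = 0.0847), and passed with the slide as a random replicate block (0.77, limma adjusted p = 0.000899) and without replicate 3 (0.65, limma adjusted p = 0.0499). The slide block counts arrays of the same animals singly, so its p-value is too small. In that fit 77.3% of all genes were called. The median difference of the 10 members was 1.85, beside 0.02 over all genes. No slide held both prenatal and post-natal arrays, so slide and stage cannot be told apart.

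FBP2, fructose-1,6-bisphosphatase of muscle, read 6.84 and 6.76 at day 60, where it was well above background in 0 of 6 channels. At day 135 the 5 animals read 7.07, 8.03, 8.97, 9.85 and 11.33, and at day 195 they read 13.09, 13.79, 13.85, 14.03 and 14.19. At birth the lowest of 6 animals was 14.70, the median 15.45 and the highest 16.50. Up to birth each time point lay above the one before it without overlap, and the 9 post-natal animals, at 16.35 to 16.98, overlapped the newborn animals. Because day 60 gives only a bound, FBP2 was at least 4.77-fold higher at day 135 (4.83-fold without the animal low in muscle genes), at least 127-fold higher at day 195, at least 433-fold higher at birth and at least 964-fold higher in the post-natal animals. The bound sets the mean of the brighter animals against, on each array, the higher of the dimmest detected signal and the probe's own.

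PFKM, the muscle phosphofructokinase that commits sugar to glycolysis, had a prenatal range of 10.20 to 15.01 with a median of 13.46, and a post-natal range of 15.75 to 16.22. GAPDH, which makes the NADH of the pathway, ranged from 14.06 to 16.35 (median 14.51) and from 16.97 to 17.43. PGK1, which makes ATP, ranged from 14.16 to 15.47 (median 14.74) and from 16.30 to 16.65. In these 3 genes, and in PGAM2, LDHA and FBP2, every post-natal animal lay above every prenatal one. That is 6 of the 10 members, beside 41.1% of all genes whose groups did not overlap in either direction. TPI1, ENO3, ALDOA and LDHB overlapped. When the day 135 animal low in muscle genes was left out, 6 members stood apart again.

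Without the array of that animal, PGAM2, the muscle phosphoglycerate mutase, rose by 1.56 in place of 1.97, and ENO3, the muscle enolase, by 1.03 in place of 1.44 (limma adjusted p = 0.0125 in place of 0.0272). FBP2 rose by 5.89, PFKM by 2.26, GAPDH by 2.23, LDHA by 1.74, PGK1 by 1.70 and TPI1 by 0.82, and LDHB fell by 0.51. The same 9 members were called.

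**Figure D1:**
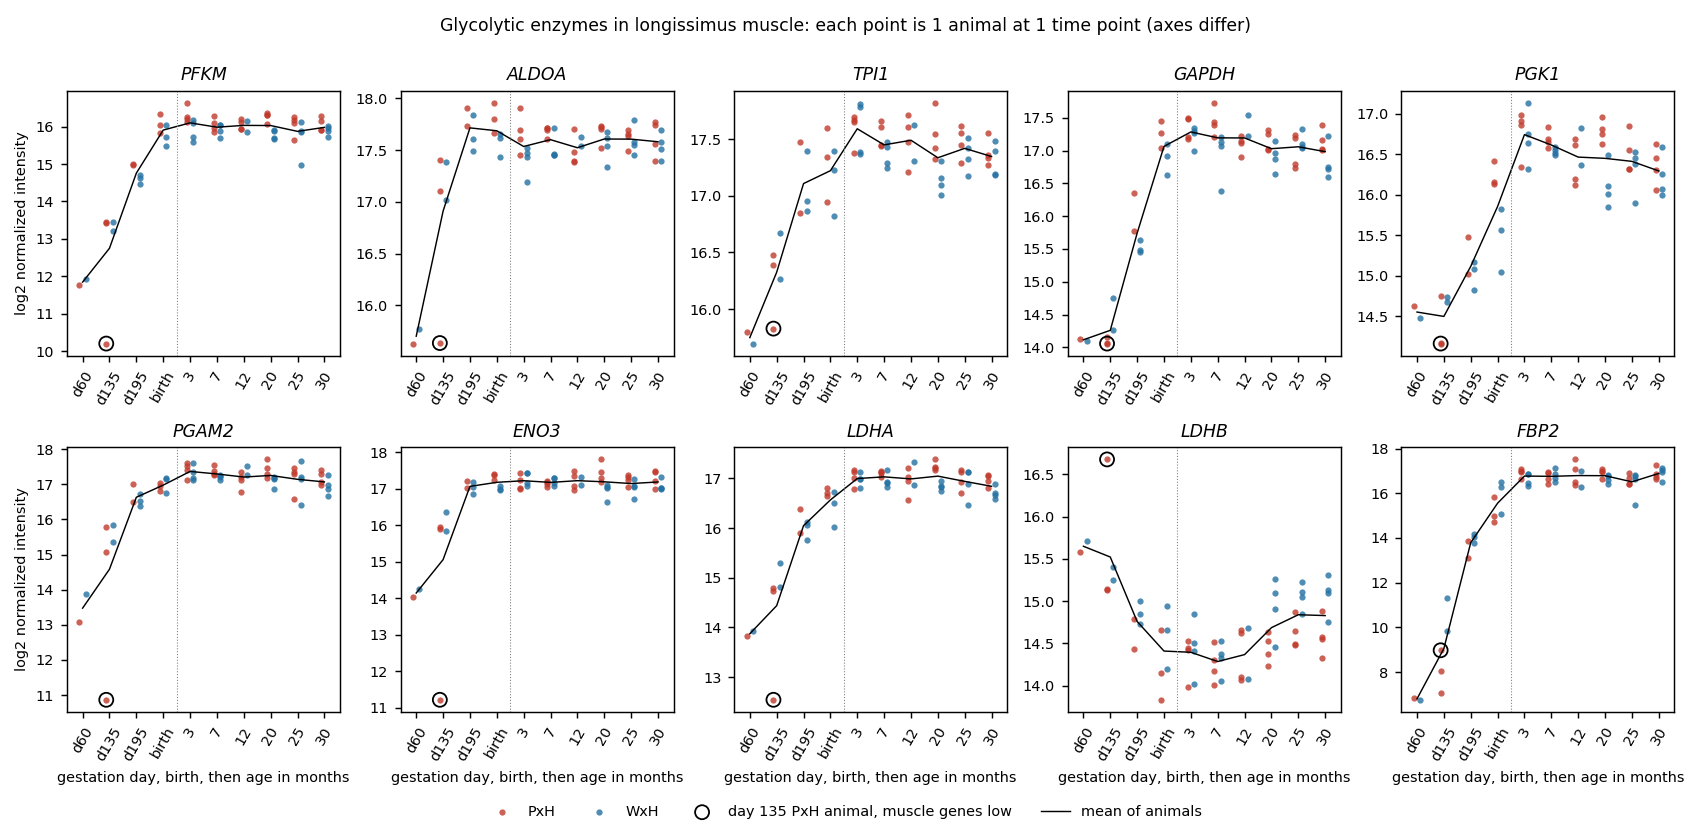
Log2 normalized intensity of each member (vertical axis) in every animal of the crosses at 10 time points (horizontal axis: gestation days, birth, then age in months). Red and blue points are PxH and WxH animals, the line joins the means, the ring marks the day 135 animal low in muscle genes, and the dotted line separates birth from later ages. Levels of FBP2 run from about the day 60 values of 6.84 and 6.76 to a plateau after birth, whereas LDHB is highest before birth.

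The steps between neighbouring time points were tested on 1 value per array, the mean of both crosses. All 13 time points shared 1 estimate of the spread, and arrays counted as independent. The 3 arrays of day 135 held 2 WxH animals and the 3 of day 195 held 2 PxH animals, so some arrays shared an animal. From day 60 to 135, 5 members rose, beside 6.79% of all genes: ALDOA by 1.29 (SE 0.17), ENO3 by 1.13 (0.39), PFKM by 1.02 (0.29) and TPI1, the isomerase between the products of aldolase, by 0.63 (0.16), as well as FBP2, for which the bound above is the size (limma adjusted p = 1.35e-08). PGAM2 differed by 1.32 (limma adjusted p = 0.0522) and LDHA by 0.71 (limma adjusted p = 0.0654). Both passed with the slide as a random replicate block (limma adjusted p = 0.000665 and 0.00116, beside 33.2% of all genes), a fit that counts the 3 day 60 arrays of the same 2 animals singly. Without the array of the animal low in muscle genes 7 members were called, LDHA and PGAM2 being added, beside 15.1% of all genes. ENO3 then rose by 1.90, PGAM2 by 2.12 and PFKM by 1.57. Without replicate 1 or without replicate 3, ALDOA, FBP2 and TPI1 alone were called, with PFKM at 0.81 and 0.67 and ENO3 at 0.79 and 0.66, and without replicate 4 the call of ENO3 was lost (limma adjusted p = 0.0971). PGAM2 at day 60 read 13.07 and 13.87, at day 135 between 15.07 and 15.84 in the 4 other animals and 10.86 in the animal low in muscle genes. Day 60 is 1 array value in this test, so its spread is assumed to be that of the other time points.

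From day 135 to 195, 9 members rose, beside 10.4% of all genes, and 1 fell, beside 12.5%. This was the step with the most members called of the 4. FBP2 rose by 4.24 (SE 0.21), PFKM by 1.93 (0.20), PGAM2 by 1.82 (0.33), ENO3 by 1.78 (0.28), LDHA by 1.45 (0.18) and GAPDH by 1.41 (0.11). These SEs use the spread shared by all time points. Among the day 135 arrays alone the SDs were 0.56, 0.95, 1.44, 1.34, 0.62 and 0.11 in the same order. The SEs can therefore understate the spread at that day. ALDOA, TPI1 and PGK1 rose by 0.57 to 0.73. LDHB fell by 0.80 (SE 0.17, limma adjusted p = 0.000441). Without the array of the animal low in muscle genes, PGK1 was not called (0.53, limma adjusted p = 0.0711), as without replicate 3 (0.53, limma adjusted p = 0.107). PGAM2 then rose by 1.02 and ENO3 by 1.01, and LDHB fell by 0.50. LDHB had read 15.13 to 15.41 in those 4 animals of day 135 and 16.68 in the animal left out, and at day 195 its lowest value was 14.43 and its median 14.79, and no animal reached those of day 135.

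From day 195 to birth, 5 members rose, beside 33.4% of all genes: FBP2 by 1.88, GAPDH by 1.32, PFKM by 1.12, PGK1 by 0.75 and LDHA, the lactate dehydrogenase subunit of fast muscle, by 0.54. The LDHA call was lost without replicate 1 (0.44, limma adjusted p = 0.122) or 3 (0.51, limma adjusted p = 0.0533). ALDOA, whose day 195 animals read 17.49 to 17.91 and whose birth animals read 17.43 to 17.95, overlapped its post-natal range of 17.50 to 17.68 at both times. From birth to month 3, 4 members rose, beside 20.4% of all genes: FBP2 by 1.21 (SE 0.19), PGK1 by 0.89 (0.17), LDHA by 0.43 (0.17) and TPI1 by 0.37 (0.11). Without replicate 2, FBP2 and PGK1 alone were called, with TPI1 at 0.32 (limma adjusted p = 0.0612). LDHA was not called without any 1 of the 4 replicates (0.30 to 0.52, limma adjusted p = 0.067 to 0.178), nor with the slide as replicate block (limma adjusted p = 0.0548). ALDOA, PGAM2 and ENO3 thus had no called step after day 195, while PGK1 and FBP2 were called at both later steps. Birth and month 3 shared no slide, so slide and age cannot be told apart at that step. Whether the steps of one member differed from those of another was not tested.

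**Figure D2:**
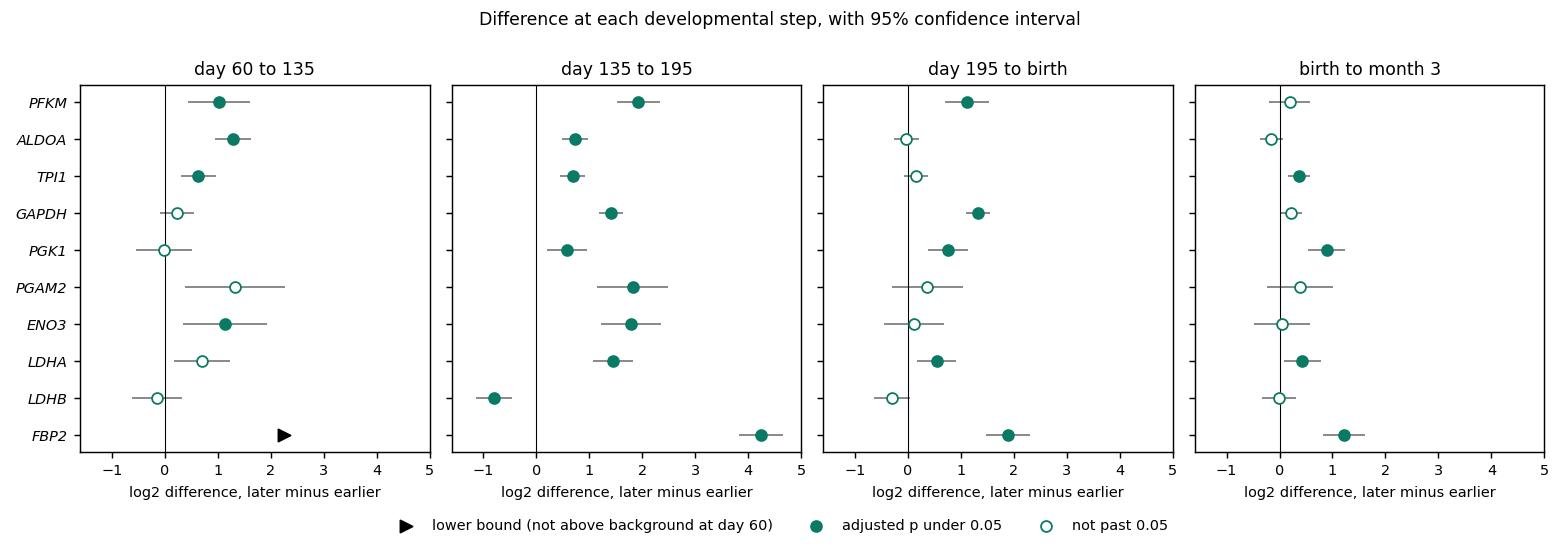
Log2 difference of each member (points, with 95% confidence intervals) at 4 developmental steps, later minus earlier time point. Filled points passed an adjusted p of 0.05. The triangle is a lower bound of 2.25 for FBP2, which was not above background at day 60. All members but LDHB lie right of 0 at the step from day 135 to 195, where FBP2 reaches 4.24.

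Between 3 and 30 months, 1 member, LDHB, differed among the 6 ages, beside 40.7% of all genes. Its mean was 14.28 (SD 0.20, n = 8) at month 7, 14.69 (0.37) at month 20, 14.84 (0.28) at month 25 and 14.83 (0.34) at month 30. The range of the 6 age means was 0.55 (limma adjusted p = 0.00428). Ages next to each other in the order of levels overlapped in their animals. Without replicate 1 the call was lost (limma adjusted p = 0.0541). The ages share animals, most of them at the same replicate number. The means of the 9 other members ranged by 0.08 (ENO3) to 0.45 (PGK1) over these ages. Months 3 to 20 shared 4 slides, and months 25 and 30 shared 2 others, so that between these sets slide and age cannot be told apart. FBP1, measured by the probe named FBP2 in the files, also differed among the ages, from a mean of 7.60 (SD 0.32) at month 3 to 10.22 (0.94) at month 25 and 8.81 (0.73) at month 30 (limma adjusted p = 7.25e-07).

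The muscle form was then set against the other form of the same step within each animal, as the difference of log2 values. Only changes of these ratios are read, since 2 probes need not bind alike. PFKM over PFKP was higher after birth by 3.07, PFKM over PFKL by 4.02, PGAM2 over PGAM1 by 2.80, LDHA over LDHB by 2.62 and FBP2 over FBP1 by 4.58. In these 5 pairs no post-natal animal overlapped a prenatal one (exact permutation test over 12 and 9 animals, two-sided, p = 6.8e-06 for each, the smallest this design allows, and 9.53e-06 adjusted over 7 pairs). Without the array of the day 135 animal low in muscle genes these 5 differences were 2.66, 3.61, 2.25, 2.25 and 4.10 in the same order, again with no overlap. For LDHA over LDHB the prenatal animals ranged from -4.14 to 1.59 with a median of -0.23, and the post-natal animals from 1.80 to 2.87 with a median of 2.49. ENO3 over ENO1 was higher by 1.51 (exact permutation test, adjusted p = 0.000318), and by 1.09 without that array. ALDOA over ALDOC was higher by 1.19 (exact permutation test, adjusted p = 0.0417), and by 0.90 without the array of the animal low in muscle genes (exact permutation test, adjusted p = 0.0749).

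The other forms themselves moved less or the other way: PFKL fell by 1.47, PGAM1 by 0.83 and PFKP by 0.51, and ENO1 differed by -0.07 (limma adjusted p = 0.187). FBP1 rose by 1.48 (limma adjusted p = 0.00183). These differences include the day 135 animal low in muscle genes, which read 11.06 for FBP1 against 6.78 to 7.60 in the others of that day. For PGAM1 it read 14.91 against 13.11 to 13.51. Without it the prenatal mean of FBP1 was 7.04 in place of 7.37. ENO1 was well above background in 15 of 18 prenatal and 21 of 48 post-natal channels, and FBP1 in 9 of 18 and 46 of 48, so both ratios rest on dim probes. HK2 has no value here, and the pair of HK2 and HK1 was not compared.

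**Figure D3:**
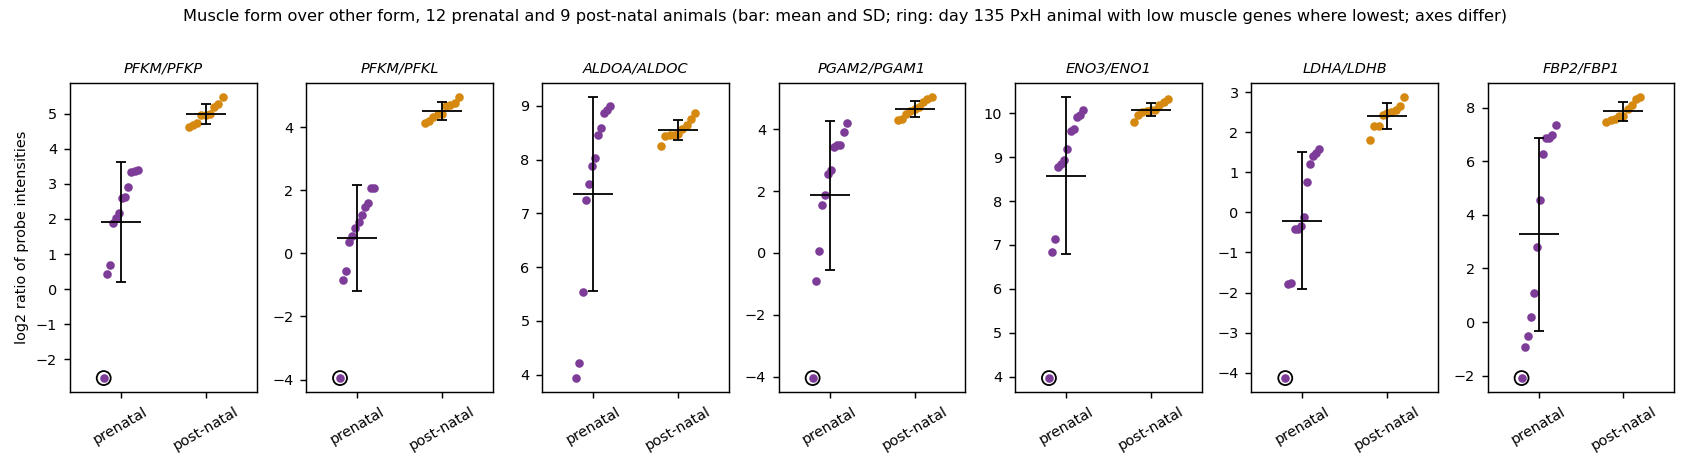
Log2 ratio of the muscle form over the other form (vertical axis) in each of 12 prenatal and 9 post-natal animals, with mean and SD. For PFKM over PFKP the post-natal animals lie between 4.62 and 5.46 and the prenatal animals between -2.53 and 3.41. The ring marks the day 135 animal low in muscle genes where it is the lowest.

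Further genes of the pathway were called with stage as well, beside 38.8% of all genes higher and 36.1% lower. Of 24 other glycolytic genes tested, 15 were higher after birth and 6 lower, with a median difference of 0.77. The largest were PFKFB3 (4.40), which sets the level of the activator of phosphofructokinase, LDHD (3.69), which acts on D-lactate, PKM (3.68), the pyruvate kinase of muscle, and GPD1 (3.58), the glycerol-3-phosphate dehydrogenase of the cytosol. Of 16 genes for sugar and lactate carriers and for pyruvate entry into mitochondria, 11 were higher and 2 lower. PDK4, which restrains pyruvate dehydrogenase, rose by 4.70, SLC2A4, the insulin-responsive glucose carrier, by 2.74 and PDHA1 by 2.05, and SLC2A1, the carrier of fetal tissue, fell by 2.07. Of 13 regulators, 9 were higher and 3 lower, among them ESRRA (2.65), HIF1A (-1.81) and MYOG (-1.54). Without the day 135 array the counts were 13 and 6 for the glycolytic genes, 11 and 2 for the carriers and 9 and 4 for the regulators.

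Markers of cell types were called with stage too, beside the same 38.8% of all genes higher and 36.1% lower. All 6 fibroblast genes were lower after birth (summed as a mean, 13.24 to 14.33 in prenatal and 11.34 to 12.40 in post-natal animals), as were 4 of 6 red cell genes and 4 of 5 endothelium genes. Of 8 fast fibre genes 5 were higher, of 7 slow fibre genes 4 and of 6 muscle fibre genes 3 (DES, TTN and CKM), and 5 of 6 white cell genes and 2 of 5 adipocyte genes were higher. With all arrays, the muscle fibre and adipocyte counts lie near the share of all genes called higher. Without the day 135 array 5 of 5 adipocyte genes, 6 fast fibre, 5 slow fibre and 1 red cell gene were higher, and the other counts were the same. In both stages each defining marker tested was well above background in some channels. ACTA1 and MYL1 differed by 0.40 and 0.57 and were not called. The part of these cell types in the differences of the members was not tested.

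Between the crosses, no member was called at any stage. The shares of all genes called were 0% before birth, 0.00683% at birth and 0% after birth, and 0% for the change of the cross difference with stage. At an unadjusted p under 0.05 there were 1, 2, 4 and 1 members in these comparisons, all written as PxH minus WxH. In the same order, 666, 938, 712 and 352 of all genes had such a p. Before birth the member was FBP2 (-1.28, limma adjusted p = 0.948). Its PxH animals read 7.07, 8.03 and 8.97 at day 135 and its WxH animals 9.85 and 11.33. The 8.97 is the animal low in muscle genes. At day 195 the crosses overlapped, with 13.09 and 13.85 in PxH and 13.79, 14.03 and 14.19 in WxH, and at day 60 PxH read 6.84 and WxH 6.76. Without that array the FBP2 difference was -1.39, and LDHB (-0.20) and PFKM (0.21) also had an unadjusted p under 0.05, none being called. At birth these were PGK1 (0.76) and ENO3 (0.32). After birth they were PFKM (0.25), PGK1 (0.18), GAPDH (0.17) and LDHA (0.14). The PFKM mean of PxH exceeded that of WxH at each of the 6 ages, with 16.30 against 15.90 at month 3 and 16.26 against 15.79 at month 20. The means were closer at month 7 (16.05 against 15.92) and at month 12 (16.05 in 4 PxH against 16 in 2 WxH animals). The ages share animals, so the same order at each age is not repeated support for a difference that was not called. The change of the FBP2 difference with stage was 1.37 (limma adjusted p = 1), and 1.48 without the day 135 array.

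With the array as replicate block, that is on the log ratio of the 2 animals of each array, 2 members were called after birth, beside 9.61% of all genes: LDHB (-0.29, SE 0.07, limma adjusted p = 0.00689) and PFKM (0.27, SE 0.07, limma adjusted p = 0.0125). The FBP2 change with stage was 1.29 in this fit (limma adjusted p = 0.0274), beside 3.35% of genes called. Arrays of the same animals at several ages count as replicates in the block, so its p-values are too small for a statement about the crosses. LDHB of the WxH animals read 14.93 (SD 0.35), 15.06 (0.16) and 15.07 (0.23) at months 20, 25 and 30, and that of PxH animals 14.44 (0.18), 14.62 (0.18) and 14.58 (0.23), 4 animals each. At months 3, 7 and 12 the means were close, at 14.44, 14.32 and 14.38 in WxH and 14.34, 14.25 and 14.36 in PxH animals. In the fit with 1 value per animal LDHB differed by -0.23 over all ages and was not called (limma unadjusted p = 0.101).

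The diet experiment asked how feed restriction changes muscle expression. At time 0, 0 of 10 members were called, beside 1.01% of all genes. At an unadjusted p under 0.05 there were 2304 genes and 1 member. This was ENO3, which differed by -0.59 in restricted against growth animals (limma adjusted p = 0.151). Its restricted animals read 16.35, 16.93, 17.04 and 17.17 and its growth animals 17.39, 17.40, 17.52 and 17.55, so that the arms did not overlap at the first time point. No share of all genes with such arms is given for time 0.

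At time 1 all 10 members were lower in restricted animals, beside 6.94% of all genes called lower and 7.08% called higher. PGK1 read 13.77, 14.28 and 14.78 in the restricted animals and 16.78, 17.08, 17.52 and 17.81 in the growth animals, a difference of -3.02 (SE 0.30, limma adjusted p = 0.0042). LDHA read 14.89, 15.01 and 15.12 against 17.13, 17.21, 18.43 and 18.55, a difference of -2.82 (SE 0.38, limma adjusted p = 0.00737). PGAM2 read 14.69, 15.26 and 15.48 against 17.17, 17.26, 18.83 and 18.90, a difference of -2.90 (SE 0.49, limma adjusted p = 0.0129). In all 3 genes the arms were far apart, and for LDHA and PGAM2 the growth animals formed a lower and a higher pair.

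ENO3 differed by -2.505 (SE 0.37), GAPDH by -1.72 (0.33), ALDOA by -1.64 (0.27) and TPI1 by -1.39 (0.19). FBP2, PFKM and LDHB differed least, by -1.0 (SE 0.14), -0.97 (0.14) and -0.45 (0.11). Every restricted animal lay below every growth animal in all 10 members, beside 14.5% of all genes with that order. The median difference of the 10 was -1.68. LDHB, which differed from the other members in its course over development, read 13.91, 14.12 and 14.24 in restricted and 14.42, 14.53, 14.54 and 14.65 in growth animals (limma adjusted p = 0.0395). Its call was lost without any 1 of the 4 replicates (limma adjusted p = 0.0661 to 0.236).

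After quantile normalization of single channels 8 members were called, beside 13.2% of all genes. FBP2 (-0.45, limma adjusted p = 0.102) and TPI1 (-0.72, limma adjusted p = 0.0883) were then lost, and ALDOA differed by -0.92. The calls at time 1 also depend on few animals. Without replicate 1, which removes 1 animal of each arm, PGK1 alone was called (-3.09, limma adjusted p = 0.0244), beside 1.77% of all genes, and the limma adjusted p of the others was 0.0519 to 0.138. Without replicate 4 PGK1 and ALDOA were called, beside 1.54%, with 0.0548 to 0.236 for the others. All 10 differences kept their sign there, with LDHA at -2.63 and -2.62. The growth animals of replicates 1 and 4 are the higher pair of LDHA and PGAM2. 1 restricted animal was on 2 of the 4 arrays.

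**Figure D4:**
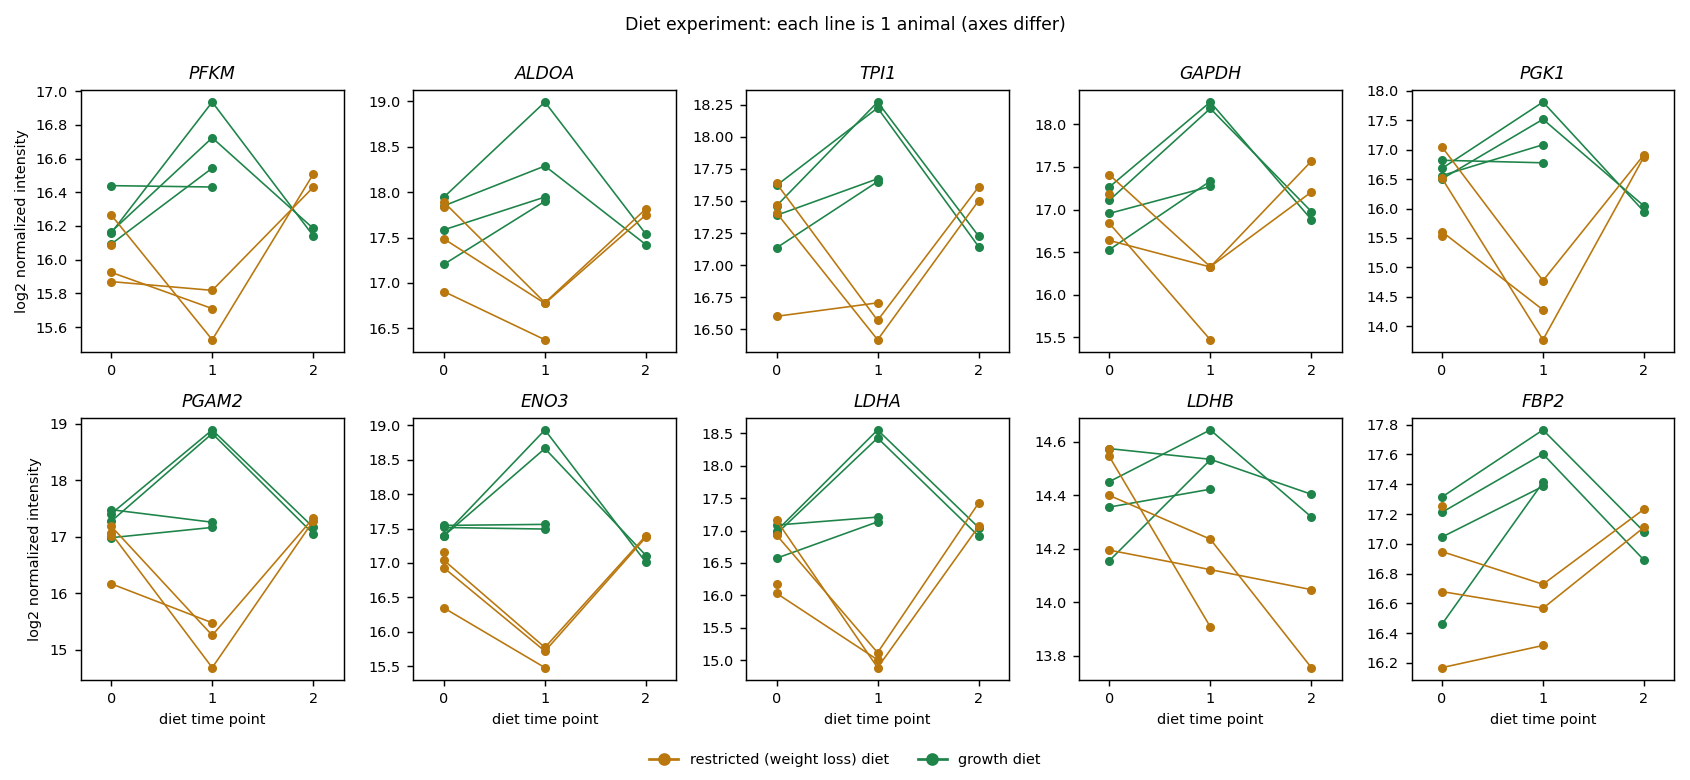
Log2 normalized intensity of each member (vertical axis) in the restricted (brown) and growth (green) animals at diet time points 0, 1 and 2 (horizontal axis), 1 line per animal. At time 1 the arms stand apart in all 10 panels, and at time 2 the 2 restricted animals lie above the 2 growth animals in all panels but LDHB.

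The change of each animal from time 0 to time 1 was compared next, since each diet time lay on 1 slide and what a slide shares cancels in the arms' difference. Of the members 7 changed more downward in restricted animals (beside 4.33% of all genes, and 4.15% upward): PGK1 (-2.77), LDHA (-2.63), PGAM2 (-2.42), ENO3 (-1.82), GAPDH (-1.72), ALDOA (-1.42) and TPI1 (-1.21). PGK1 changed by -2.74, -2.27 and -1.33 in the 3 restricted animals and by 1.13, 1.01, 0.52 and -0.04 in the 4 growth animals. Both arms moved in most animals, and LDHA changed by -2.27, -1.81 and -1.03 against 1.56, 1.48, 0.56 and 0.12. Both arms share every array, and the normalization gives all arrays 1 distribution of mean intensities, so a level in 1 channel is not independent of its partner. With the array as replicate block LDHA, PGAM2 and PGK1 alone were called (-2.53, -2.58 and -2.68), beside 2.53% of all genes, and after quantile normalization LDHA and PGK1. Without replicate 1 no member was called, beside 0.143% of all genes (PGK1 at -2.52, limma adjusted p = 0.108). Without replicate 2 PGK1 alone was called, and without replicate 4 PGK1 and TPI1.

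At time 2, with 2 animals per arm, 0 members and 0% of all genes were called by limma. Restricted names the arm here, and its animals may have been re-fed by then. At an unadjusted p under 0.05 there were 813 genes and 5 members: PGK1 (0.90), GAPDH (0.46), TPI1 (0.37), ENO3 (0.33) and LDHB (-0.46). All 10 members had arms that did not overlap. The restricted animals lay above in 9 of them, an order found in 14.9% of all genes. They lay below in LDHB, an order found in 16.5% of all genes. PGK1 read 16.88 and 16.92 in restricted and 15.95 and 16.04 in growth animals. Between times 1 and 2 PGK1 rose by 2.14 and 3.11 in the 2 restricted animals and fell by 1.47 and 1.86 in the 2 growth animals, while LDHB fell in all 4. With the array as replicate block 3 members were called, PGK1, GAPDH and LDHB (limma adjusted p = 0.0239, 0.0422 and 0.0432), beside 3.05% of all genes. Its arrays pair the same 2 animals per arm again, so these p-values are too small.

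Other genes differed between the arms at time 1, beside 6.94% of all genes called lower and 7.08% called higher in restricted animals. Of the 24 other glycolytic genes 5 were lower, PKM (-2.34), GPI (-1.83), GPD1 (-1.76), PGM1 and PFKFB1, and 2 were higher, GPD2 (1.51) and PFKFB2 (1.10). Of the 16 carrier and pyruvate genes 2 were lower, SLC16A3 (-1.23) and BSG (-0.96), the muscle lactate carrier and its chaperone, and 2 were higher, SLC2A1 (1.11) and SLC2A5 (0.45). Of the 13 regulators 1 was lower, EPAS1 (-1.71), a count near the share of all genes called lower.

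Cell type markers were called as well, beside the same 6.94% of all genes lower and 7.08% higher. Of 6 fibroblast genes 5 were lower, COL3A1 (-4.48) and COL1A1 (-4.38) among them, and the mean of the list was 9.32 to 10.03 in restricted and 11.74 to 12.97 in growth animals. Of 6 muscle fibre genes ACTA1 (-6.16), MYL1 (-2.12) and CKM (-1.55) were lower and DES (1.33) higher, with means of 14.79 to 15.10 and 16.19 to 17.04. Of 8 fast fibre genes 4 were lower and of 7 slow fibre genes 2 (MYL3 with -4.05 and MYH7 with -1.40). Of 5 endothelium genes 2 and of 6 white cell genes 1 were lower, and 0 of 5 adipocyte and 0 of 6 red cell genes were called. ALAS2 of the red cell list was well above background in 0 of 4 channels of either arm. Their part in the lower levels of the members was not tested.

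The 2 GAPDH probes agreed on direction and differed in size. Their differences with stage were 1.81 and 2.78, and at diet time 1 they were -1.82 and -1.62. The LOC616200 probe differed by 0.89 with stage and by -1.62 at diet time 1.

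Over the 26 condition means, the members fell into 9 genes that varied together and LDHB. The 36 pairs without LDHB had a median Pearson correlation of 0.93, with a lowest value of 0.75. All 9 pairs with LDHB were negative, with a median of -0.74. Within the 8 prenatal and birth conditions the LDHB pairs ranged from -0.98 to -0.86 and within the 12 post-natal conditions from -0.79 to -0.12, but within the 6 diet conditions they were positive, from 0.215 to 0.449. The 36 other pairs ranged from 0.71 to 0.99, from -0.08 to 0.90 and from 0.884 to 0.996 in these 3 sets. Without the array of the day 135 animal low in muscle genes these medians were 0.91 and -0.70. The conditions share arrays, and most of the spread lies between prenatal and later time points, so these values describe the course above. PFKM and FBP2 were most like TMOD4 (0.99 for each), which caps thin filaments, and ENO3 was most like TPM1 (0.97), a tropomyosin. ALDOA and TPI1 were most like AK1 (0.95 and 0.96), the adenylate kinase of the cytosol. The most alike gene was LOC514503 for GAPDH (0.98), DHDH for PGK1 (0.95), DHRS7C for PGAM2 (0.97), ATCAY for LDHA (0.97) and SCD5 for LDHB (0.94).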

How the data were processed

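The authors extracted total RNA with TRIzol, hybridised both channels and scanned the arrays. They deposited for each spot raw mean and background intensities with flags, from Agilent Feature Extraction 9.5.1 per the labels and a log10 ratio (Cy5 to Cy3). The value table of the whole series repeats these deposited log10 values, which served as an alternative. The authors' mixed-effect model was not refitted here. Intensities were background-corrected with normexp (offset 50), loess-normalized within and Aquantile-normalized between arrays, and averaged per probe, gene and animal in limma 3.58.1 (R 4.3.3). Probes were kept when well above background in at least 24 of 96 channels. Each gene's mean difference between dyes was taken out before animals were compared (lmFit, eBayes). Isoform ratios used scipy 1.17.1. Of 21475 probes, 16738 were matched to a RefSeq gene, the others keeping the files' names. Arrays of one time point number 3 or 4, which limits the precision. Scripts were tested on simulated data. The members and gene lists were chosen with earlier results of these data known. The named genes were all members, the list genes that moved most (up to 4), the other isoforms and the most alike genes, and 1 list gene is not reported here. Same-numbered arrays share a slide before and at birth and from month 3 to 20, where most also share animals (median correlation of deviations 0.264 and 0.378). The main fits of the steps and of the post-natal ages did not use this pairing. It entered only the fit with the slide as replicate block. Same-numbered diet arrays share animals at times 0 and 1 with 1 exception (median 0.0527, lowest -0.17 over the 3 times), and the diet change was tested within animals.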

Additional observations from a re-analysis of the deposited data

Results flagged for a closer look

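Of 140 groups of 4 or more animals examined, 10 held a highest or lowest animal that stood apart by Dixon's test, and chance alone marks about 1 in 20 groups. The low animals were PFKM in PxH at month 20 (16.07), ALDOA in PxH at month 20 (17.52), TPI1 in PxH at month 3 (17.38), GAPDH in WxH at month 7 (16.38), PGAM2 in WxH at month 20 (16.86) and in restricted animals at diet time 0 (16.17), ENO3 in WxH at month 20 (16.64) and FBP2 in WxH at month 25 (15.46). The high animals were ALDOA in WxH at month 7 (17.71) and ENO3 in WxH at month 30 (17.31).

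The change from diet time 0 to 1 differed between the arms by limma in 7 members: PGK1 (-2.77), LDHA (-2.63), PGAM2 (-2.42), ENO3 (-1.82), GAPDH (-1.72), ALDOA (-1.42) and TPI1 (-1.21), each as restricted minus growth. This is beside 4.33% of all genes called in that direction. The count was 0 without replicate 1, 1 without replicate 2, 2 without replicate 4 or after quantile normalization and 3 with the array as replicate block.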

How the results depend on the processing

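With the array as replicate block, 2 members were called for the crosses after birth and 1 for the cross by stage. At diet time 2 and for the diet change 3 members each were called. Beside them 9.61%, 3.35%, 3.05% and 2.53% of all genes were called in this order. On the deposited log ratio with the same block 5, 1, 1 and 3 members were called, beside 10.4%, 1.61%, 1.83% and 2.27% of all genes. Both fits count arrays that share animals as replicates. The diet change count was 2 after quantile normalization of single channels, 4 without the filter on dim probes and 4 with the dye effect kept. The shares of all genes called were 6.64%, 5.13% and 5.63% in the same order. The cause of these shifts was not tested. Leaving out 1 replicate number or the day 135 array gave 3 to 7 members from day 60 to 135, beside 9.6% to 15.4% of all genes. From birth to month 3 it gave 2 to 4, beside 32.7% to 42.7%. Leaving out 1 replicate number gave 0 to 1 among the post-natal ages (22.9% to 36.4%). At diet time 1 it gave 1 to 9 (1.54% to 9.47%), and for the diet change 0 to 6 (0.143% to 4.7%). ALDOA over ALDOC moved between 0.90 and 1.36 under these omissions, with the call lost without replicate 1 or 2. Counts for stage, from day 135 to 195, from day 195 to birth, for the crosses before and at birth and at diet time 0 stayed within 1.5 times under every alternative, the slide or array as replicate block included. On normalized intensities these blocks changed no call of a member beyond those given above. On the deposited log ratio LDHB was not called at diet time 1. Of the members, 36 values changed sign under an alternative, and 0 of these had passed the threshold. The exclusion of the day 135 array was chosen after the data were seen. 2 animals per arm at diet time 2 and 1 animal per cross at day 60 limit what can be called there.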
